A study of Mus musculus with 6 samples.

Results

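The costimulatory receptors of regulatory T (Treg) cells were compared between wild-type cells and cells with a Treg-specific knockout of Tkt, the gene of transketolase, an enzyme of the pentose phosphate pathway. The group holds 10 genes chosen by symbol, 2 from the CD28 family (Icos and Cd28) and the others from the tumour necrosis factor (TNF) receptor superfamily (Tnfrsf4, Tnfrsf8, Tnfrsf9, Tnfrsf18, Tnfrsf1b, Tnfrsf25, Cd27 and Fas). All 10 were among the 18493 genes of the table, and all 10 passed the filter on low counts that left 12887 genes for testing. RNA was sequenced from CD4+CD25+YFP+ cells that had been sorted from spleen and lymph node of female C57BL/6 mice aged 7 weeks. The 3 wild-type libraries (WT1 to WT3) came from mice of genotype Foxp3cre/+, and the 3 knockout libraries (cKO1 to cKO3) from mice of genotype Foxp3cre/+ TKTfl/fl. Both groups thus carried Cre under the control of Foxp3 on a single X chromosome, which makes these females mosaic, and the sort on YFP takes the cells that use that chromosome. The labels do not say whether a library holds 1 mouse or a pool, so p-values cover the spread from library to library only. The design text calls the mice chimeric.

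CD28 and ICOS are receptors of the immunoglobulin superfamily that bind B7 family ligands and add a second signal, carried in large part by phosphatidylinositol 3-kinase, to that of the T cell receptor. Receptors of the TNF superfamily bind trimeric ligands and recruit TRAF adaptors, which activate NF-kappaB, whereas Fas and DR3 carry a death domain. Treg cells are known for high levels of several of these receptors, among them OX40 (Tnfrsf4), GITR (Tnfrsf18) and TNFR2 (Tnfrsf1b), and ICOS marks their activated, effector-type subset.

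The libraries held 17180577 to 18215168 estimated reads. Tkt stood at 97.1 to 126 CPM (reads relative to the library total, which is corrected by TMM for differences in composition) in WT and at 31.9 to 52.5 CPM in cKO libraries. With a log2 fold change of -1.41 ± 0.19 (SE), it just missed the threshold of the test used here (adjusted p = 0.0516), and 7 of 16 alternative settings called it. The sorted cells carried the markers that define Treg cells: Foxp3 stood at 458 to 686 CPM, Il2ra at 628 to 833 CPM, Cd4 at 735 to 930.5 CPM, Cd3e at 309 to 425 CPM and Ikzf2 at 537 to 714 CPM. None of the 6 defining markers was called. Ikzf2 was lower in every cKO library (608, 537 and 599 CPM) than in any WT library (670, 714 and 626 CPM), as were 8.12% of all genes. Its log2 fold change was -0.21 ± 0.09 (SE; edgeR adjusted p = 0.642). WT2 and cKO1 had the highest values, 25.4 and 33.2, on a first principal component that held 36.1% of the variance. On it cKO2 was intermediate at 8.11, nearer to WT2 than to cKO3, and WT1, WT3 and cKO3 lay between -25.9 and -18.4. WT2 and cKO1 were also the libraries with the highest Tnfaip3, an NF-kappaB feedback inhibitor, at 4898 and 4612 CPM against 1152 to 2332 CPM. Markers of other cell types were summed as CPM of the whole library, without TMM scaling. The 7 B cell markers came to 19.5 to 21.8 CPM in WT against 13.4 to 32.5 CPM in cKO, the 8 myeloid markers to 33.7 to 63.6 against 39.0 to 95.1 CPM, and the 6 CD8 T and NK cell markers to 21.4 to 23.3 against 24.1 to 28.1 CPM. The macrophage receptor gene Csf1r reached 21.97 CPM in cKO2 and 9.07 CPM in cKO1, where the other libraries had 1.46 to 4.25 CPM. Erythroid markers summed to 191 CPM in cKO1 and to 0.282 to 5.41 CPM elsewhere. No marker of these 4 lists was at 0 in all libraries, none was called, and their part in the results below was not tested.

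Of the 10 receptors, Icos was called lower in cKO cells and none was called higher. The threshold for a call was an adjusted p of 0.05 in edgeR's quasi-likelihood test, adjusted over all genes tested. Over all genes tested, 0.210% were called in either direction and 0.202% were called lower. The log2 fold change was below 0 for 9 of the 10 receptors, against 48.6% of all genes, and its median over the receptors was -0.21, beside 0.004 over all genes. An unadjusted p under 0.05 was reached by 5 receptors (Icos, Cd28, Tnfrsf4, Tnfrsf8 and Tnfrsf1b), all with a lower mean in cKO, and by 7.69% of all genes. The 2 groups of libraries did not overlap for 5 receptors. In Icos, Tnfrsf4, Tnfrsf8 and Tnfrsf1b every cKO library was below every WT library, which held for 8.12% of all genes, and in Tnfrsf25 every cKO library was above, which held for 6.10%. Since these are RNA levels of a sorted bulk population, fewer cells with a receptor and less RNA of it per cell cannot be told apart.

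**Figure D1:**
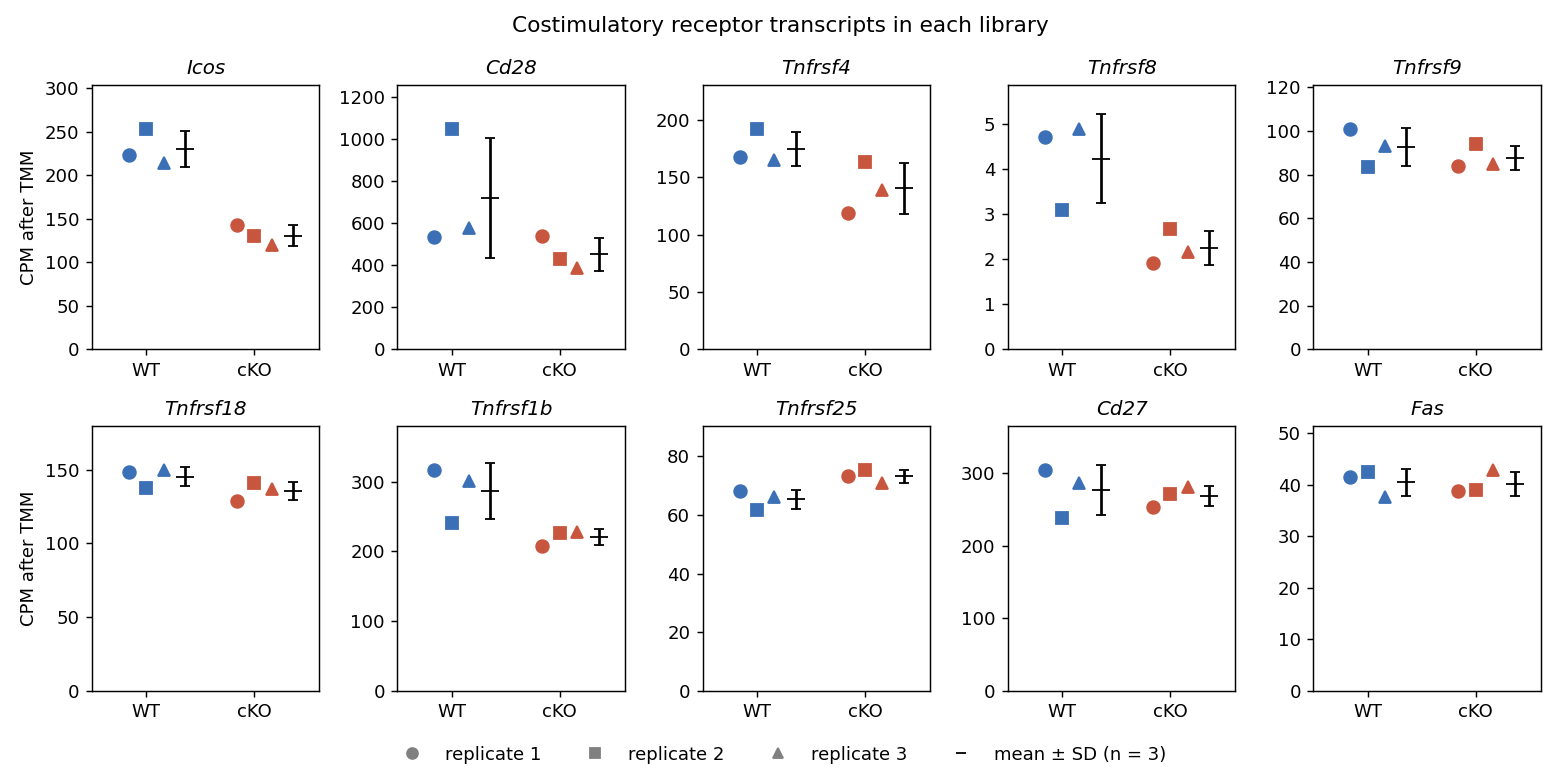
CPM after TMM scaling of the 10 receptor genes (vertical axes, each starting at 0) in the 3 WT and 3 cKO libraries, with a marker shape for each replicate number and the mean ± SD beside the points. The cKO points of Icos, at 120 to 143 CPM, lie below the WT points at 214 to 253 CPM, while the points of Cd28, Cd27, Fas, Tnfrsf9 and Tnfrsf18 overlap.

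**Figure D2:**
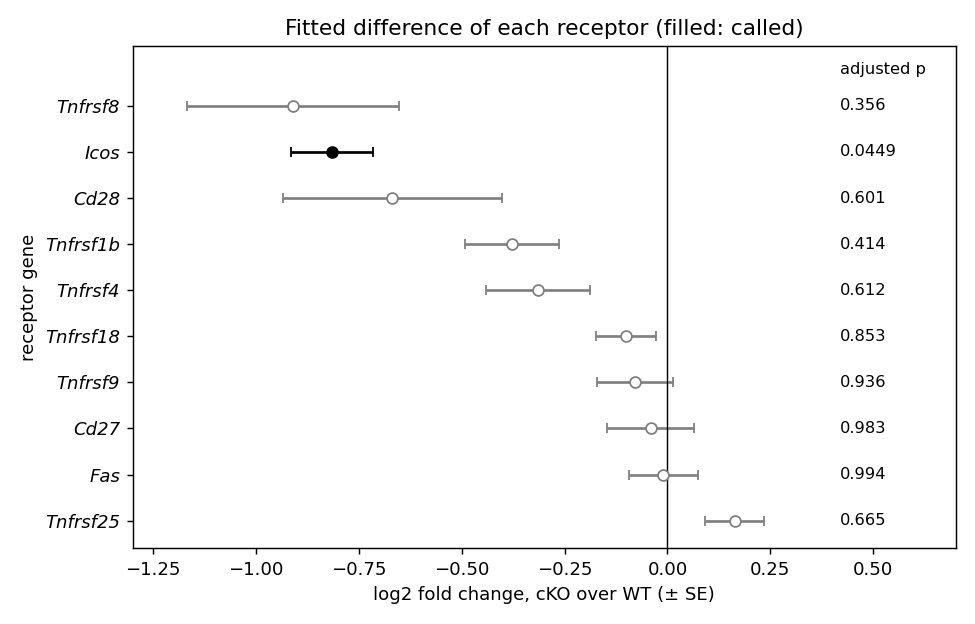
Fitted log2 fold change of each receptor, cKO over WT (horizontal axis), with its standard error as a bar and its adjusted p from edgeR at the right. Only the point of Icos is filled, as the single receptor called.

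Icos, which binds ICOS ligand on antigen-presenting cells, stood at 223, 253 and 214 CPM in WT1, WT2 and WT3 and at 143, 130 and 120 CPM in cKO1, cKO2 and cKO3. The lowest WT library lay well above the highest cKO library. The group means were 230 ± 20.4 CPM for WT and 131 ± 11.8 CPM for cKO (SD, n = 3), a 1.76-fold fall (log2 fold change -0.81 ± 0.10 SE, edgeR adjusted p = 0.0449). Each value rests on 2146 to 4230 reads, all of them whole numbers in the deposited table. Icos ranked 17 among the 12887 genes by p, and from 7 to 45 under the alternatives. Its log2 fold change kept between -0.88 and -0.74 over the 16 alternatives, of which 10 called it. Leaving out any single library other than WT2 ended the call (adjusted p from 0.112 to 0.191). In those 5 fits no gene at all was called, whereas 681 to 909 genes had an unadjusted p under 0.05. Without WT2 the call held (adjusted p = 0.0436), as it did without both WT2 and cKO1 (log2 fold change -0.81, adjusted p = 0.0269). With the replicate number as a block it did not (adjusted p = 0.189). DESeq2, which called 1.15% of the genes it gave an adjusted p, gave Icos an adjusted p of 2.48e-10.

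Cd28, the receptor of CD80 and CD86 and the founding member of its family, had 537, 1049 and 576 CPM in WT, against 541, 431 and 388 CPM in cKO. WT2 was far above every other library, and cKO1 lay level with WT1. Cd28 was not called (log2 fold change -0.67 ± 0.27 SE, adjusted p = 0.601). Without WT2 the log2 fold change was -0.30 (adjusted p = 0.531), and without both WT2 and cKO1 it was -0.44 (adjusted p = 0.0955), a fit in which 0.550% of genes were called. Ctla4, which encodes the inhibitory receptor of the same ligands, had a like spread, at 807, 1727 and 753 CPM in WT against 977, 739 and 492 CPM in cKO cells (log2 fold change -0.57 ± 0.37 SE, edgeR adjusted p = 0.826). Without WT2 the value of Ctla4 was -0.08, and leaving out any other single library gave -0.83 to -0.35. The 3 genes are neighbours on chromosome 1 of mm10, where Cd28 spans 60746388 to 60773359, Ctla4 60909025 to 60915832 and Icos 60960773 to 61000322, with no other protein-coding gene of the RefSeq annotation between them. Of 3 other receptors of the CD28 family, Ctla4 and the inhibitory receptor Pdcd1 (log2 fold change -0.16 ± 0.27 SE, adjusted p = 0.970) were below 0, none was called, and the median was -0.16.

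Whether Icos and Cd28 differed in their change was tested on their ratio within each library, which does not depend on scaling. The log2 ratio of Icos to Cd28 counts was -1.27, -2.05 and -1.43 in WT and -1.92, -1.73 and -1.70 in cKO. WT2 had the lowest ratio of all 6 libraries, and the groups overlapped. The mean difference was -0.20 (exact two-sided permutation test, p = 0.5, adjusted p = 0.5 over the 3 ratios compared in this way, n = 3 per group), and 0.1 is the smallest p that this design allows. Leaving out 1 library moved the difference from -0.44 (without WT2) to -0.04 (without WT1), and it was -0.12 without WT3.

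Tnfrsf8 encodes CD30, a receptor of activated lymphocytes, and was by far the least abundant of the 10. It stood at 4.71, 3.11 and 4.90 CPM in WT and at 1.92, 2.67 and 2.17 CPM in cKO, on 33 to 87 reads per library. WT2 was the lowest WT library and remained above cKO2, the highest cKO library. Its log2 fold change of -0.91 ± 0.26 (SE) was the largest among the receptors, but its adjusted p of 0.356 did not pass, and none of the 16 alternatives called it (adjusted p from 0.180 to 0.902).

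Tnfrsf1b encodes TNFR2, the TNF receptor through which TNF is known to act on Treg cells. It stood at 316, 240.3 and 301 CPM in WT and at 207, 227 and 227 CPM in cKO. The cKO libraries lay close together and below WT2, the lowest WT library. The log2 fold change was -0.38 ± 0.11 (SE), with an adjusted p of 0.414. Without WT2 the adjusted p was 0.0737 (log2 fold change -0.49), and without both WT2 and cKO1 Tnfrsf1b was called lower (log2 fold change -0.44, adjusted p = 0.0442). Both libraries had the highest values on the first principal component of these same data and were the lowest of their groups for Tnfrsf1b. The fit without them called 0.550% of genes, against 0.210% in the reported fit. The remaining alternatives did not call Tnfrsf1b, with adjusted p-values up to 0.955.

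Tnfrsf8 and Tnfrsf1b lie 20.3 kb apart on chromosome 4 (145267132 to 145315164 and 145212368 to 145246870 in mm10) with no protein-coding gene between them. The 250 bases upstream of a RefSeq start site of each (GRCm38.p6, the same build) are shown because the genes are neighbours that were both lower in every cKO library, beside those of Fas, with a log2 fold change of -0.01. Capitals mark matches, on either strand, to the AP-1 motif TGANTCA, the NFAT core TGGAAA or the kappaB motif.
Tnfrsf8, chr4:145315165-145315414, minus strand: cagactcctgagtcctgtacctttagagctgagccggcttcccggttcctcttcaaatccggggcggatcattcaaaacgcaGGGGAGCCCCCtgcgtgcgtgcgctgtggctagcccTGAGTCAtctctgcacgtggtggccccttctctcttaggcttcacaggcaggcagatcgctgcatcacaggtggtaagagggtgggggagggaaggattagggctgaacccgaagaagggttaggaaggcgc
Tnfrsf1b, chr4:145246871-145247120, minus strand: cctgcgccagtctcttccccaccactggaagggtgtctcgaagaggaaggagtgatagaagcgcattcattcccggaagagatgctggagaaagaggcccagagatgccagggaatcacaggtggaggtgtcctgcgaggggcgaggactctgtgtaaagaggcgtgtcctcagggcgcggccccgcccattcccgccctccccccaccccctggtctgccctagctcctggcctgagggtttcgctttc
Fas, chr19:34290409-34290658, plus strand: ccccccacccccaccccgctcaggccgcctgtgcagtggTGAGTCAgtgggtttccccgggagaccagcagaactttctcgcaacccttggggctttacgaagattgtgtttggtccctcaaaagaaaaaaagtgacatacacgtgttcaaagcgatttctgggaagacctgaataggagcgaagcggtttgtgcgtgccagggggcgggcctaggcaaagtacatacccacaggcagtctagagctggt
The Tnfrsf8 window held an AP-1 match at 132 to 126 bases before the start, and overlapping kappaB matches on both strands at 168 to 158 bases. The Fas window held an AP-1 match at 211 to 205 bases, and the Tnfrsf1b window held none of the 3 motifs. Among all 32851 windows of the same length, 6.75% held the AP-1 motif, 7.25% the kappaB motif and 18.6% the NFAT core. RefSeq windows were at hand for 8 of the 10 receptors, not for Icos and Cd28. Of the receptors whose windows are not printed, Tnfrsf4, also lower in every cKO library, held an NFAT match. Tnfrsf9, whose groups overlapped, held an NFAT match in one window and AP-1 and kappaB matches, as Tnfrsf8 did, in another. Tnfrsf25 held a kappaB match in 1 of its 2 windows, and Tnfrsf18 and Cd27 held no match. A match describes the letters only.

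The log2 ratio of Tnfrsf8 to Tnfrsf1b was -6.07, -6.27 and -5.94 in WT and -6.75, -6.41 and -6.71 in cKO. Every cKO library had a lower ratio than any WT library. The mean difference was -0.53 (exact two-sided permutation test, p = 0.1, the smallest possible, adjusted p = 0.3 over the 3 ratios, n = 3 per group).

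Tnfrsf4 (OX40) and Tnfrsf18 (GITR), which both costimulate effector T cells and are carried by resting Treg cells, are a second pair of neighbours on chromosome 4. Tnfrsf4 spans 156013595 to 156016613 and Tnfrsf18 spans 156026322 to 156028894, with 9.71 kb between them. Tnfrsf4 stood at 167, 192 and 165.4 CPM in WT and at 119, 163.6 and 139 CPM in cKO. The groups were separated by a narrow margin, since cKO2 lay just under WT3. Its log2 fold change was -0.31 ± 0.13 (SE; adjusted p = 0.612), and -0.13 without both WT2 and cKO1. Tnfrsf4 overlaps Sdf4 in the RefSeq annotation, and Tnfrsf18 overlaps Gm16008, so without a stated counting rule their levels are uncertain. The estimated reads of Tnfrsf4, Tnfrsf9, Tnfrsf1b and Tnfrsf25 were not whole in any library, whereas those of Tnfrsf18 were whole in all 6. How the fractions arose is not known here.

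Tnfrsf18 stood at 148, 138 and 149.6 CPM in WT and at 129, 141 and 137 CPM in cKO. The groups overlapped, with cKO2 above WT2, and libraries within a group differed by little (coefficients of variation of 4.42% in WT and 4.39% in cKO). The log2 fold change was -0.10 ± 0.07 (SE; adjusted p = 0.853). The log2 ratio of Tnfrsf4 to Tnfrsf18 was 0.18, 0.48 and 0.15 in WT and -0.11, 0.22 and 0.03 in cKO, again overlapping. Its mean difference was -0.22 (exact two-sided permutation test, p = 0.3, adjusted p = 0.45, n = 3 per group), -0.31 to -0.12 on leaving out 1 library, and -0.04 without both WT2 and cKO1, so an unequal change of the neighbours was not shown.

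Tnfrsf9 (chromosome 4, 150920155 to 150946104) encodes 4-1BB, which T cells gain on activation. It stood at 101, 83.5 and 93.0 CPM in WT and at 84.1, 93.9 and 84.8 CPM in cKO. WT2 was the lowest of all 6 libraries, and the log2 fold change was -0.08 ± 0.09 (SE; adjusted p = 0.936). Cd27 (chromosome 6, 125232620 to 125237136), the receptor of CD70 and a costimulator of resting T cells, stood at 304, 238 and 287 CPM in WT and at 254, 271 and 281 CPM in cKO. WT2 was lowest again and the cKO libraries lay inside the WT range (log2 fold change -0.04 ± 0.11 SE, adjusted p = 0.983). Its sign turned without WT1 (0.04). Cd27 overlaps 2 other annotated genes, and its estimated reads were whole in 1 library.

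The 2 receptors with a death domain had the smallest of the negative differences (Fas) and the single positive one (Tnfrsf25). Tnfrsf25 (chromosome 4, 152115528 to 152120119) encodes DR3, the receptor of TL1A, whose engagement is known to expand Treg cells. It stood at 68.2, 61.6 and 66.2 CPM in WT and at 73.4, 75.3 and 70.8 CPM in cKO. Every cKO library was above every WT library, by a small margin between cKO3 and WT1, and Tnfrsf25 was the one receptor with a log2 fold change above 0 (0.16 ± 0.07 SE, adjusted p = 0.665). The sign was the same in all 16 alternatives, from 0.12 to 0.20, and none called it. Fas (chromosome 19, 34290647 to 34327775), which triggers apoptosis on binding FAS ligand, stood at 41.4, 42.4 and 37.5 CPM in WT and at 38.8, 38.9 and 42.8 CPM in cKO. The groups overlapped throughout, the log2 fold change was -0.01 ± 0.08 (SE; adjusted p = 0.994), and its sign turned in 5 of the 16 alternatives.

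**Figure D3:**
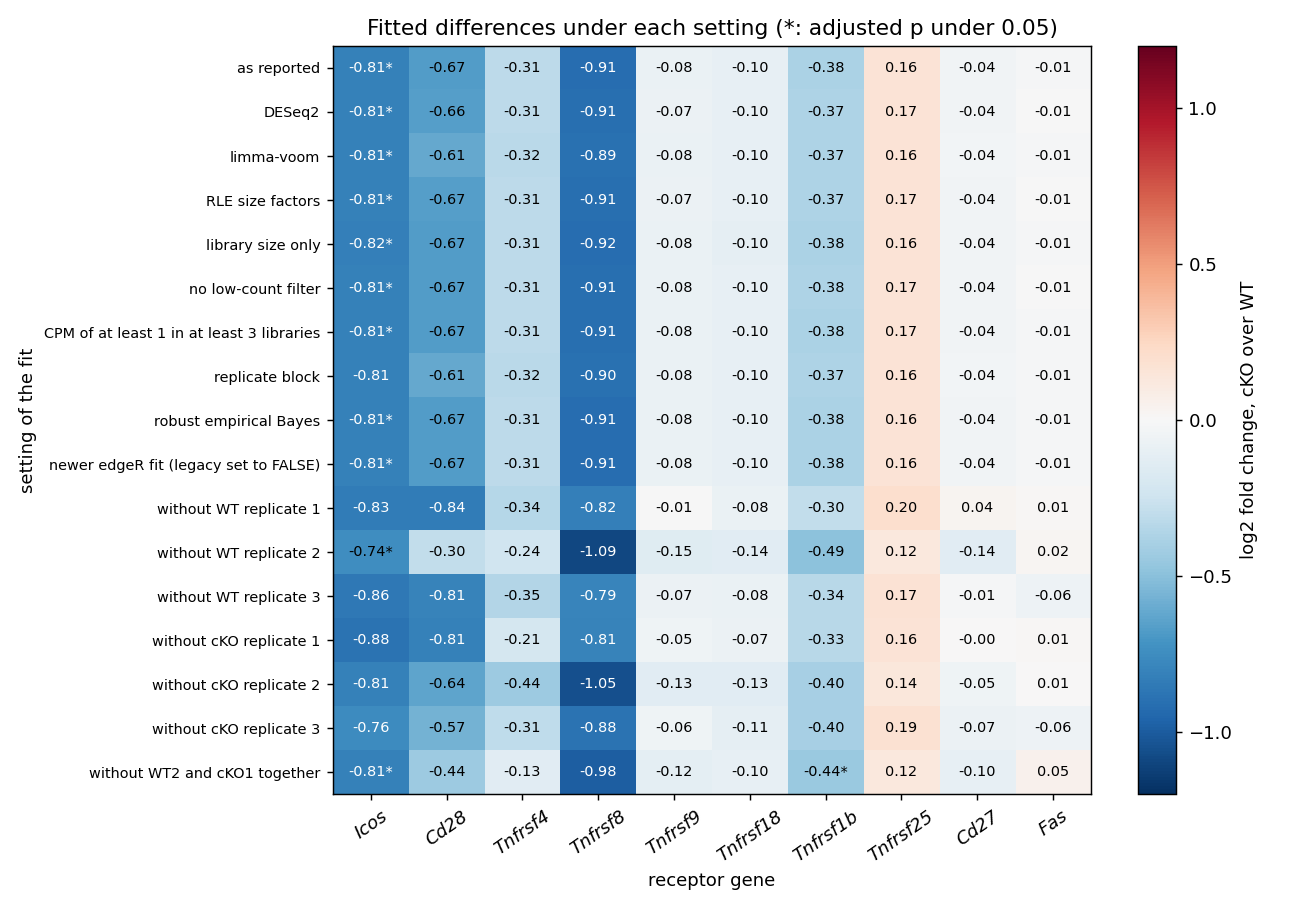
Fitted log2 fold change, cKO over WT (colour and number), of the 10 receptors (columns) in the reported fit and its 16 alternatives (rows), with an asterisk at an adjusted p under 0.05. The Icos column stays between -0.88 and -0.74, the Cd28 column ranges from -0.84 to -0.30, and the other asterisk, outside the Icos column, is at Tnfrsf1b without WT2 and cKO1.

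Levels of different receptors were compared only per transcript length, on the deposited FPKM values (fragments per kilobase of transcript, scaled to library depth), a unit judged from the values. In WT cells Cd27, Cd28, Tnfrsf4 and Tnfrsf18 were the most abundant, with means of 170 ± 24.4, 165 ± 60.8, 152 ± 9.21 and 142 ± 9.32 FPKM (SD, n = 3). The libraries of each of these overlapped those of the next in the order, so their order does not exceed their spread. Icos took rank 5 at 70.0 ± 4.61 FPKM, apart from Tnfrsf18 above it and, by a narrow margin, from Tnfrsf1b below it (57.8 ± 9.38 FPKM). The lowest WT library stood at 65.9 FPKM for Icos, and the highest at 64.9 FPKM for Tnfrsf1b. Tnfrsf9 (44.5 ± 5.31 FPKM) and Tnfrsf25 (39.8 ± 2.71 FPKM) overlapped their neighbours in the order, Fas (28.6 ± 1.496 FPKM) stood apart below them, and Tnfrsf8 was last at 2.72 ± 0.683 FPKM.

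In cKO cells Cd27 was again first at 165 ± 11.6 FPKM, now apart from Tnfrsf18 (133 ± 9.12 FPKM), which overlapped Tnfrsf4 (122 ± 21.2 FPKM). Cd28 followed at 104 ± 15.4 FPKM, overlapping Tnfrsf4 and apart from Tnfrsf25 below it. Icos took rank 8 at 39.6 ± 2.60 FPKM, at the foot of a run in which Tnfrsf25 (44.6 ± 1.74 FPKM), Tnfrsf1b (44.4 ± 3.32 FPKM), Tnfrsf9 (42.04 ± 2.96 FPKM) and Icos each overlapped the next. Fas (28.5 ± 1.93 FPKM) and Tnfrsf8 (1.44 ± 0.266 FPKM) kept the last 2 places. The summed FPKM of the 10 receptors was 870.3, 900.3 and 845 in WT and 689, 756 and 726.5 in cKO.

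**Figure D4:**
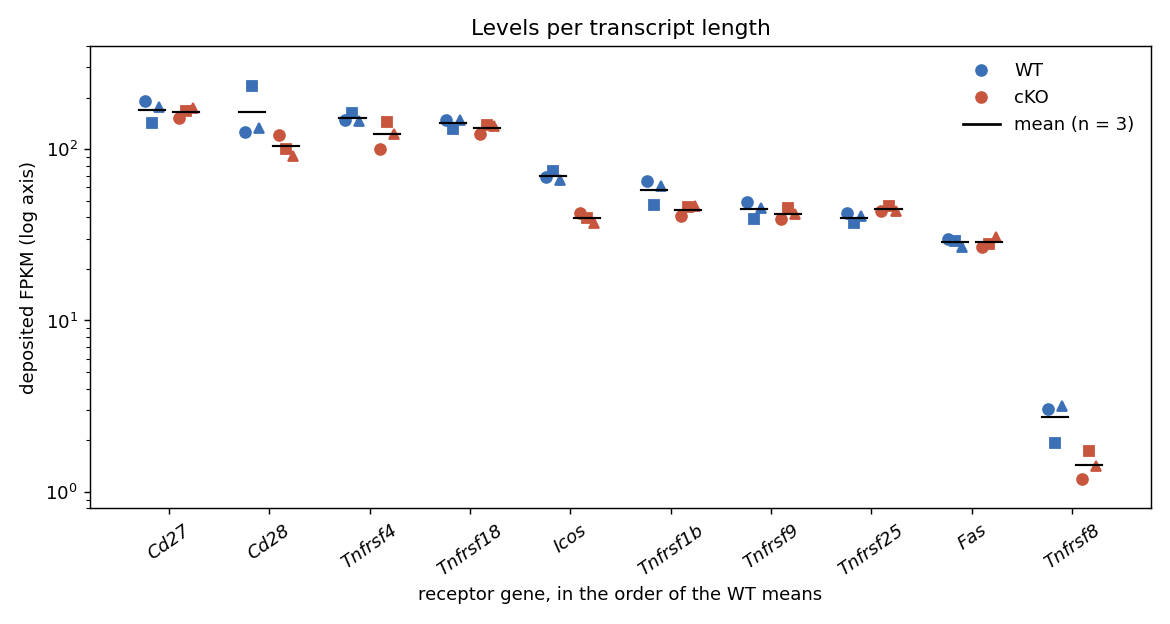
Deposited FPKM of each receptor (vertical axis, logarithmic) in the WT (blue) and cKO (red) libraries, ordered by the WT mean, with circles, squares and triangles for replicates 1, 2 and 3 and a line at each mean. Icos stands at 65.9 to 74.98 FPKM in WT, well below Tnfrsf18 and narrowly above Tnfrsf1b, and at 37.1 to 42.2 FPKM in cKO, where it overlaps Tnfrsf9.

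The genes called in this comparison whose profile over the 6 libraries was closest to that of Icos were Plcb4, Itgb1 and Lamc1. Closeness was the Euclidean distance between log2 CPM profiles, each centred on its own mean, over the 26 called genes that are not among the receptors, and it was 0.16, 0.26 and 0.30. Plcb4, a phospholipase C that acts in signalling from G protein-coupled receptors, stood at 30.8, 34.7 and 30.6 CPM in WT and at 18.0, 18.3 and 17.4 CPM in cKO (adjusted p = 0.0444). Itgb1, the integrin beta-1 chain, stood at 261, 285 and 238 CPM in WT against 139, 155 and 145 CPM in cKO (adjusted p = 0.0449). Lamc1, a laminin chain, stood at 59.3, 54.3 and 54.4 CPM in WT against 37.6, 34.7 and 33.5 CPM in cKO (adjusted p = 0.0449). Since all 4 genes were called between the same groups, likeness of their profiles follows in part from that choice.

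None of the ligands of the 10 receptors was called. Of 12 ligand genes, 10 passed the filter, Tnfsf18 and Cd70 being too low. A log2 fold change below 0 was found in 9 of the 10 (median -0.19, from -0.35 to 0.46), beside 48.6% of all genes. No ligand reached an unadjusted p under 0.05 in edgeR, and in each of the 10 the WT and cKO libraries overlapped. The ligands with the lowest p were Lta, which encodes lymphotoxin alpha, at 108, 72.3 and 106 CPM in WT against 63.1, 81.7 and 92.7 CPM in cKO cells (log2 fold change -0.27 ± 0.19 SE, edgeR adjusted p = 0.853), and Tnfsf9, the ligand of 4-1BB, at 3.16 ± 0.825 and 2.49 ± 0.284 CPM (SD, n = 3; adjusted p = 0.872). In both, WT and cKO libraries overlapped, and leaving out 1 library gave -0.43 to -0.13 for Lta and -0.55 to -0.21 for Tnfsf9.

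The other genes of the TNF receptor superfamily were split in the sign of their difference. Of 20 genes, 17 were in the table and 11 passed the filter, with 5 below and 6 above 0 (median 0.004, from -0.53 to 0.39), and none was called. Tnfrsf23, a decoy receptor of TRAIL, had the lowest p, at 3.60, 3.59 and 3.15 CPM in WT against 2.27, 2.18 and 2.73 CPM in cKO cells (log2 fold change -0.53 ± 0.21 SE, edgeR adjusted p = 0.591). Its groups did not overlap, which held for 1 of the 11 genes and is a share near the 8.12% of all genes that were lower in every cKO library. Tnfrsf13b, which encodes TACI, stood at 54.0 ± 4.72 and 50.0 ± 0.861 CPM (SD, n = 3; adjusted p = 0.875). Its log2 fold change was -0.11, and -0.18 to -0.05 on leaving out 1 library.

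The adaptors and kinases downstream of the TNF receptors were all measured and none was called. The 25 genes had a median of 0.01, with 12 below and 13 above 0, a range from -0.31 to 0.28, and no unadjusted p under 0.05. Map3k14, the NF-kappaB inducing kinase of the non-canonical pathway, stood at 81.6, 59.5 and 82.3 CPM in WT against 101, 88.1 and 83.0 CPM in cKO cells (log2 fold change 0.28 ± 0.14 SE, edgeR adjusted p = 0.749). Relb, the NF-kappaB subunit of the same pathway, stood at 76.6, 73.5 and 75.9 CPM in WT against 71.9, 71.5 and 64.5 CPM in cKO cells (log2 fold change -0.12 ± 0.07 SE, edgeR adjusted p = 0.809). The 2 genes had opposite signs. Without WT2 the value of Map3k14 was 0.14, and without both WT2 and cKO1 it was 0.06, while that of Relb was -0.07 without cKO3. The WT and cKO libraries did not overlap in 3 of the 25 genes, these 2 among them (1 lower and 2 higher in cKO), beside 8.12% lower and 6.10% higher over all genes, a share near the background.

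Genes that carry the CD28 and ICOS signal had log2 fold changes that were more often above 0. Of 21 genes, 16 were above and 5 below 0 (median 0.07, from -0.34 to 0.32), beside 48.6% of all genes below 0. None was called, and 3 reached an unadjusted p under 0.05, 2 of them with a higher mean in cKO. Over all genes 7.69% reached that p. Pik3cd, the catalytic phosphatidylinositol 3-kinase subunit of lymphocytes, stood at 592, 565 and 599 CPM in WT against 809, 727 and 658 CPM in cKO, where every library was above every WT library (log2 fold change 0.32 ± 0.09 SE, adjusted p = 0.365). Prkcq, the protein kinase C of the T cell synapse, stood at 355, 385 and 371 CPM in WT against 428, 420 and 425 CPM in cKO, again without overlap (log2 fold change 0.20 ± 0.07 SE, adjusted p = 0.527). Of the 21 genes, 4 were higher in every cKO library and 1 was lower, beside 6.10% and 8.12% of all genes. The lower one was Malt1, at the low end of the range (log2 fold change -0.34 ± 0.13 SE, edgeR adjusted p = 0.572).

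**Figure D5:**
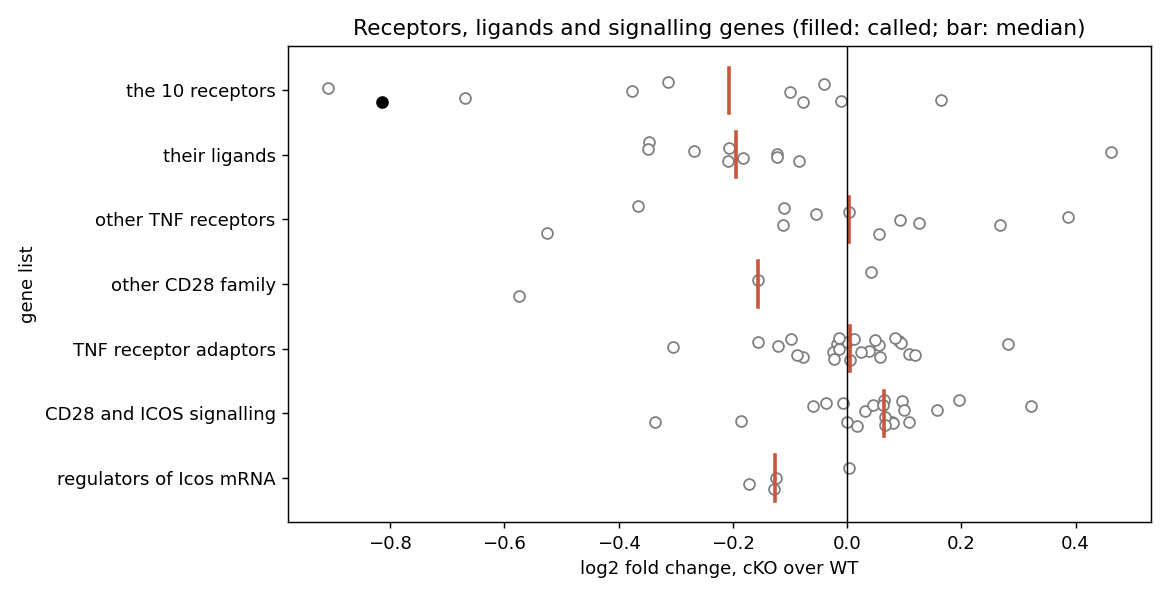
Log2 fold change, cKO over WT (horizontal axis), of every tested gene in the lists of receptors, ligands and signalling genes, with a red bar at each list's median. The only filled point is Icos, and the medians run from -0.21 for the 10 receptors to 0.07 for CD28 and ICOS signalling.

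Roquin proteins bind the messenger RNAs of Icos and Tnfrsf4 and promote their decay. Of 4 genes listed as regulators of these messenger RNAs (Rc3h1, Rc3h2, Zc3h12a and Nufip2) none was called (median -0.13). Zc3h12a was highest in WT2 (358 CPM) and cKO1 (302 CPM), against 68.5 to 133 CPM in the other libraries (log2 fold change -0.12 ± 0.67 SE). Rc3h1, encoding Roquin-1, stood at 104, 144 and 107 CPM in WT against 119, 107 and 98.1 CPM in cKO cells (log2 fold change -0.13 ± 0.14 SE, edgeR adjusted p = 0.925), with WT2 highest. Rc3h2, encoding Roquin-2, stood at 93.7, 85.4 and 95.005 CPM in WT against 79.8, 72.2 and 91.5 CPM in cKO cells (log2 fold change -0.17 ± 0.10 SE, edgeR adjusted p = 0.806).

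Immediate early genes, which report recent stimulation of T cells, were measured beside the receptors because Icos, Cd28 and Tnfrsf9 respond to stimulation. Their summed level, without TMM scaling, was 14800 to 19500 CPM in WT, with WT2 highest, and 10800 to 16600 CPM in cKO, with cKO3 lowest. Of 21 genes tested, 14 were below and 7 above 0 (median -0.18), and none was called. In 3 of the 21 (Fosb, Jund and Cd69) every cKO library was below every WT library, beside 8.12% of all genes. The log2 fold changes of Jun (-0.002), Junb (-0.03), Nr4a1 (0.007) and Egr1 (0.10) lay near 0. Fosb, an AP-1 subunit, stood at 972, 1024 and 930 CPM in WT against 285, 715 and 367 CPM in cKO cells (log2 fold change -1.098 ± 0.31 SE, edgeR adjusted p = 0.356). Dusp1, a phosphatase of MAP kinases, stood at 1364, 1036 and 1481 CPM in WT against 699, 1063 and 809 CPM in cKO (adjusted p = 0.446). Fosb, like Icos, was lower in every cKO library than in any WT library, whereas the libraries highest in Tnfaip3 were WT2 and cKO1. The part of these genes in the lower Icos was not tested.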

How the data were processed

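RNA of sorted CD4+CD25+YFP+ cells was measured in 3 WT and 3 cKO libraries, grouped and numbered by sample title. Tools listed in the submitters' processing notes are DESeq2 1.16.1, HISAT2 2.0.5 and featureCounts 1.5.0-p3, and the genome listed is mm10, without their roles. The authors deposited estimated counts per gene, not normalized, of which 45.4% to 46.3% per library were not whole to within 0.01. They also deposited values that behave as FPKM, judged from the values: over 7624 genes at 5 or more in every library, the length implied by count and FPKM had a median coefficient of variation of 0.79% between libraries. The counting rule and its use of strand are not given in these sources.

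Estimated counts were rounded. Of 18493 genes, 956 have only a BGI identifier and stayed in the fit, and 23 symbols turned into dates were restored by Entrez identifier. In R 4.3.3, genes passing filterByExpr of edgeR 4.0.16 (minimum count 10) were scaled by TMM and compared by its quasi-likelihood F test, with group as the only term and Benjamini-Hochberg adjustment over 12887 genes. The standard error was derived from the F statistic. Ratios used exact permutation tests. The code was tested on simulated counts. Alternatives were DESeq2 1.42.0, voom of limma 3.58.1, other scaling, filters and dispersion settings, the replicate block, and leaving out libraries. Coordinates are those of RefSeq on GRCm38.p6, the mm10 build, matched by Entrez identifier for all 10 receptors.

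The receptors and the 12 other gene lists were chosen with earlier results of these data known. Named genes were all receptors, Tkt and the Treg markers, the 2 genes of lowest p in each list without a call, Tnfaip3, the most abundant marker of each other cell type, and 3 called genes closest in profile to each called receptor. Some named markers of other cell types are given only in the list sums.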

Additional observations from a re-analysis of the deposited data

How the results depend on the processing

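The number of genes called by edgeR, 27, was 171 with DESeq2, 43 with no low-count filter, 48 with robust empirical Bayes and 71 without WT2 and cKO1 together. Leaving out 1 library at a time gave 0 to 30, and the 5 fits with 0 (all but that without WT2) had 681 to 909 genes at an unadjusted p under 0.05. The number of receptors called, 1, was 0 to 1 on leaving out 1 library and 2 without WT2 and cKO1 together, the second being Tnfrsf1b. With the replicate number as a block, 0 genes and 0 receptors were called (811 genes at an unadjusted p under 0.05), and Icos had a log2 fold change of -0.81 (adjusted p = 0.189). Deviations of same-numbered libraries from their group means correlated at -0.28, 0.06 and 0.26. Of the cKO libraries, cKO2 and cKO3 correlated best with the WT library of their own number, and cKO1 with WT2 (0.315). Deviations from a mean of 3 libraries depend on each other, so these values cannot decide whether the numbers pair the libraries. In the ratio tests the block left the differences at -0.20 for Icos to Cd28 (permutation p = 0.75), -0.22 for Tnfrsf4 to Tnfrsf18 (permutation p = 0.25) and -0.53 for Tnfrsf8 to Tnfrsf1b (permutation p = 0.25). With labels exchanged only within replicate numbers, 0.25 is the smallest p this permutation test allows, so both Tnfrsf ratios stood at its limit.

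Of 45 named genes, 36 kept their sign in each of the 16 alternatives in which they were tested, as did 8 of the 10 receptors. The myeloid marker Itgax was not tested without WT2 and cKO1 together. The erythroid marker Hbb-bs was not tested under the filter of at least 1 CPM in at least 3 libraries. On leaving out 1 library the log2 fold change spanned 0 in 9 genes, from -0.14 to 0.036 for Cd27, -0.06 to 0.024 for Fas, -0.36 to 0.066 for Pdcd1, -0.21 to 0.036 for Rc3h1, -0.81 to 0.34 for Tnfaip3, -0.074 to 0.14 for Cd3e, -0.11 to 0.16 for Foxp3, -0.11 to 0.092 for Il2ra and -0.085 to 5.34 for Hba-a1. Without WT2 and cKO1 together it was 0.05 for Fas, -0.074 for Cd3e, -0.17 for Foxp3 and -0.024 for Il2ra. The cause was not tested. Ratio tests with 3 libraries a group cannot reach a p under 0.1, and at 33 to 87 reads the level of Tnfrsf8 is limited by counting.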
